A study of Mus musculus with 7 samples.

Results

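MHC class I antigen processing and presentation was followed in 10 genes across 7 RNA sequencing libraries of mouse B cells. They were taken as a named list of 10 out of the 11850 genes that could be named in at least 1 library: the heavy chains H2-K1 and H2-D1, the light chain B2m, the peptide loading genes Tap1, Tap2 and Tapbp, the immunoproteasome subunits Psmb8, Psmb9 and Psmb10, and the transcriptional activator Nlrc5. All 10 were assembled in all 7 libraries. The libraries were made from primary B cells of wild-type C57BL/6 mice, and each stood for 1 condition: unstimulated cells at 0 h, and cells stimulated with anti-IgM, with BAFF or with both agents for 8 h or 30 h. Anti-IgM is an antibody that crosslinks the B cell antigen receptor, and BAFF is a cytokine of the tumour necrosis factor family on which mature B cells depend for survival. The study asked how the agents act alone and together. No library was cultured without an agent, so time in culture and stimulus cannot be told apart in any comparison with the unstimulated library. The number of mice, the purity of the cells and the doses are not given in the sources used here.

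MHC class I molecules show peptides from inside the cell to CD8+ T cells on nearly all nucleated cells. The proteasome cuts cytosolic proteins into peptides, the TAP transporter carries these into the endoplasmic reticulum, and tapasin holds an empty heavy chain and its light chain beside the transporter until a peptide is bound. Lymphoid cells carry the immunoproteasome, in which 3 inducible catalytic subunits take the place of constitutive ones, and Nlrc5 activates most genes of the pathway from a conserved promoter module.

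The promoters of the heavy and light chains and of Tap1 are shown because the first hold the classical elements for NF-kappaB and for the activator complex, and because the last also serves the gene on the opposite strand. The sequences are those of RefSeq on GRCm38.p6, from 250 bases before to 50 after the start, and were found for 8 of the 10 genes (not for Tap2 and Nlrc5). Capitals mark matches, on either strand, to a kappaB motif, to an interferon-stimulated response element (GAAA, NN, GAAA), to TTCNNNGAA (a gamma-activated site), to CCAAT and to TGACG (the core of a cyclic AMP response element). H2-K1 lies at chr17:34000284-34000583 on the minus strand, H2-D1 at chr17:35262844-35263143 on the plus strand, B2m at chr2:122147437-122147736 on the plus strand and Tap1 at chr17:34187306-34187605 on the plus strand.
H2-K1: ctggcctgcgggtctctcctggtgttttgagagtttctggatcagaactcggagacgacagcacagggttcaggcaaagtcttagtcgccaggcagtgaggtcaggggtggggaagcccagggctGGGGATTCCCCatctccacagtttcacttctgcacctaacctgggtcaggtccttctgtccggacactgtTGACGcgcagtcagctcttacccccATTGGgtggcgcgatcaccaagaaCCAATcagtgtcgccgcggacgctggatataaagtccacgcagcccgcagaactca
H2-D1: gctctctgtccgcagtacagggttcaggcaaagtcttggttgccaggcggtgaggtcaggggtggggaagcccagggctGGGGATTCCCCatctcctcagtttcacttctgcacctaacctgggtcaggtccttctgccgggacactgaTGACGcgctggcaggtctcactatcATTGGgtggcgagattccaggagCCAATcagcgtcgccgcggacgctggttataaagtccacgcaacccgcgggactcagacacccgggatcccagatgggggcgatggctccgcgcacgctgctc
B2m: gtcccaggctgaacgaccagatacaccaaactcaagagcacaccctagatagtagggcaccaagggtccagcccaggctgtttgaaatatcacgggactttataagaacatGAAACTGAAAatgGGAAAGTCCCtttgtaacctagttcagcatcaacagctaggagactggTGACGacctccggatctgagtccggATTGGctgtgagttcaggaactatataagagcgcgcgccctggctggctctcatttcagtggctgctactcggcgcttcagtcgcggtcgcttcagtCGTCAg
Tap1: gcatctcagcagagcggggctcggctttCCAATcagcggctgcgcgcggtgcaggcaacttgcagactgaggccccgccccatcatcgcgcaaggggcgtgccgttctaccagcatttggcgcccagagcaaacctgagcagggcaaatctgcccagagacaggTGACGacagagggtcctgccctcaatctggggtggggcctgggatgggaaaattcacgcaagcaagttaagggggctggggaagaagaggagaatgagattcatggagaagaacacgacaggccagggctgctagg

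A kappaB match was found in 3 of the 8 windows, those of H2-K1, H2-D1 and B2m, against 8.46% of 32817 RefSeq promoters of the same length. In both heavy chain genes the match was the palindrome GGGGATTCCCC, in which 4 overlapping matches on the 2 strands fall. Only the B2m window matched the letters used here for the interferon-stimulated response element (3.43% of all promoters). Only that of Psmb8 matched those for the gamma-activated site (8.29%). Variants of these letters were not searched, so a window without a match, such as those of H2-K1 and H2-D1, may still hold a variant of the element. CCAAT was present in 6 of the 8 (37.4% of all) and TGACG in 5 (20.8%). Psmb10 had none of the 5 motifs in its window, at chr8:105938343-105938642 on the minus strand. Its assembled transcripts started at 105938104 to 105938153, outside this window, so the bases next to those starts were not searched. These are matches of letters and not measured binding. The start of Psmb9, on the minus strand, lies 225 bases from that of Tap1, so that both genes are transcribed away from 1 short stretch.

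Depth, calculated back from the deposited values, was 18.7 M to 28.6 M mapped reads per library, and 10376 to 10804 genes were named in each. The 5 B cell markers used here (Cd79a, Cd79b, Ms4a1, Pax5 and Blnk) were assembled in every library, with a summed FPKM of 559.6 to 2320.0. Of 14 macrophage and monocyte markers 13 were assembled in the unstimulated library and 7 to 11 in the others. Their summed FPKM was 361 in the unstimulated library and 33.3 to 344 in the others, where Cd68 made up most of the higher sums. Of 7 dendritic cell markers 6 were assembled in the unstimulated library, with a summed FPKM of 48.4, and 2 to 4 in the others, with 11.4 to 19.9. Of 7 erythroid markers 2 were assembled in the unstimulated library (221 FPKM) and 0 to 2 in the others (0 to 48.1). Of 8 T cell markers 3 were assembled in the unstimulated library (24.3 FPKM) and 1 or 2 in the others (14.9 to 95.4). Most of these sums was Lck, a kinase named here after its values were seen, whose FPKM was 16.5 without stimulation and 93.8 after 30 h of anti-IgM. Cd3d, Cd3e and Trac were assembled in no library, but T cell markers other than Lck were assembled in the unstimulated library. With BAFF at 30 h against it 2 of the 8 were compared, and 1 was called higher and 1 lower, the latter by -1.39 by FPKM. In that comparison 9.16% of all genes were called in either direction. NK cell and platelet markers summed to at most 8.2 and 2.75 FPKM, and no neutrophil marker was assembled in any library. Other blood cells carry class I too, and their part in the differences from the unstimulated library was not tested. In bulk RNA, fewer cells of a type and less RNA per cell cannot be told apart.

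Levels are given on a pair of scales. FPKM is the authors' value, fragments per kilobase of assembled transcript per M mapped reads, summed over the transcripts named for the gene. The second value, called reads over exons below, takes all reads calculated back from every assembled piece that overlaps the reference exons of the gene. It divides them by the length of those exons and by mapped reads, in the same unit (per kilobase per M reads). Reads of a piece outside the reference exons are counted too, so a longer piece can raise the value. The second value is calculated from the same FPKM and is not independent. It shows where the length of a transcript, which was assembled anew in each library, moves the FPKM. Intervals are 2 standard deviations either way and cover counting error only, not differences between cultures or mice. A difference was called when log2(FPKM + 1) differed by at least 1 (about 2-fold) and the intervals did not overlap. There was 1 library per condition, and no difference was tested.

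**Figure D1:**
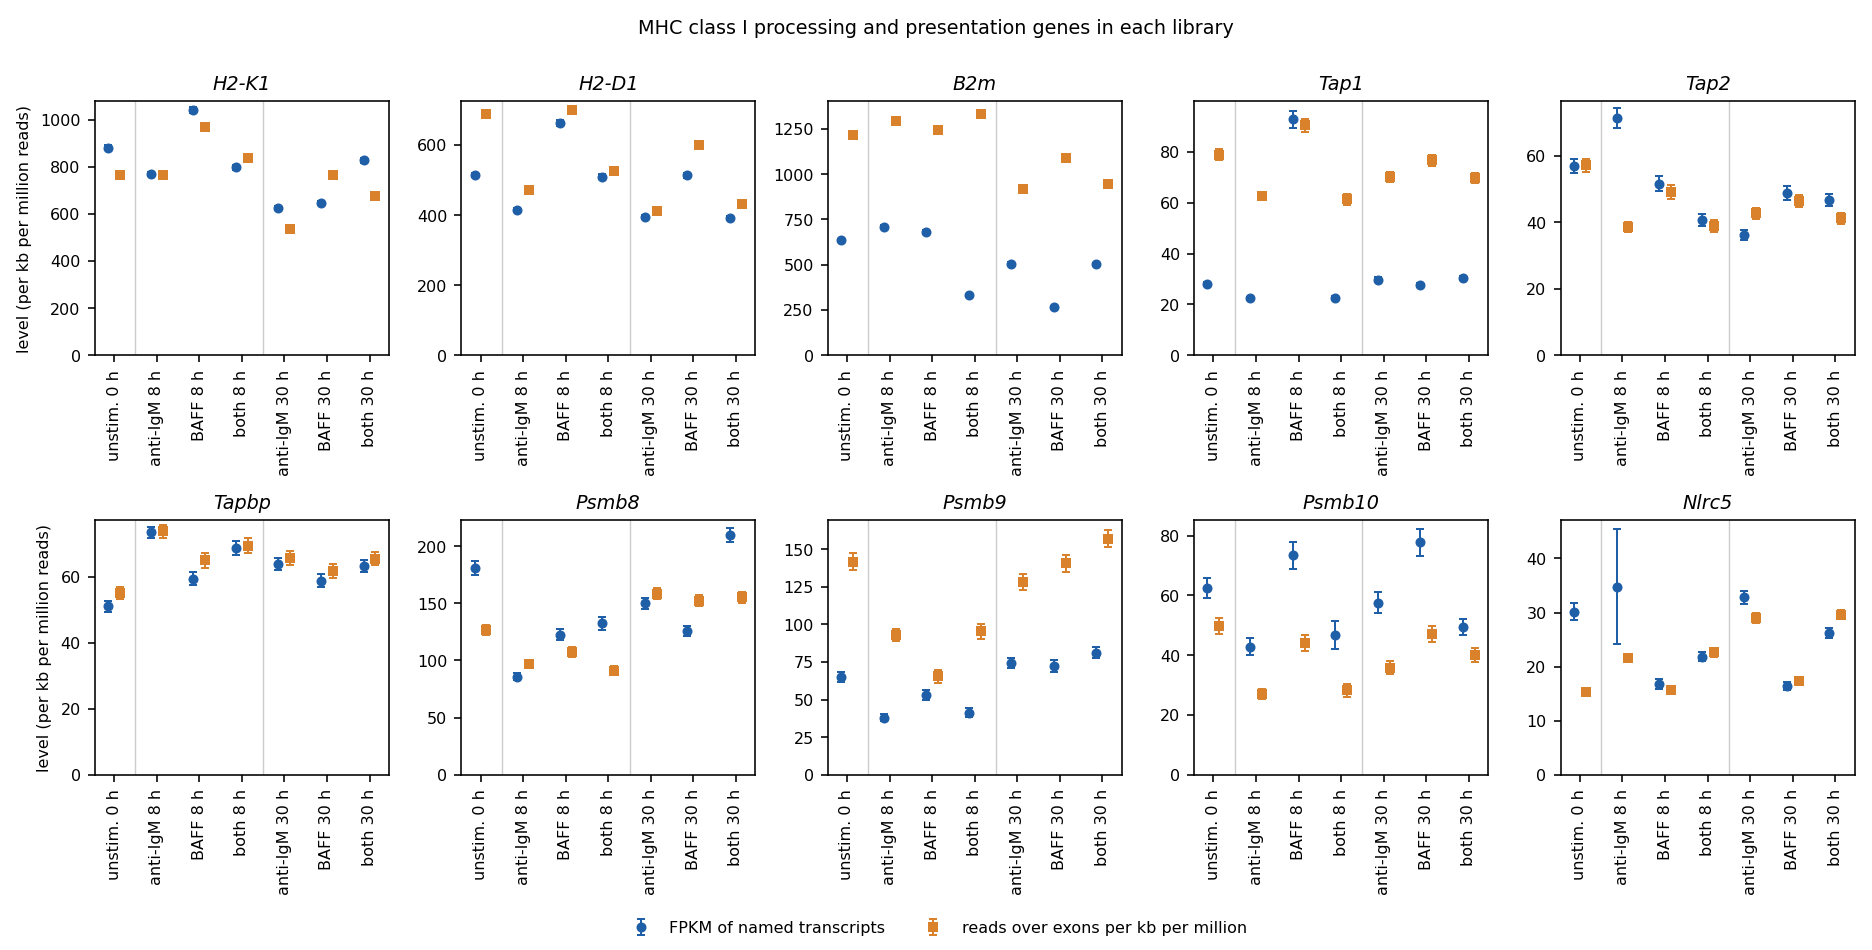
Level of each of the 10 genes (vertical axes, per kilobase per M reads, starting at 0) in the 7 libraries (horizontal axis), as FPKM of the named transcripts (circles) and as reads over exons (squares). Bars are the intervals for counting error. The circles of B2m are low with both agents at 8 h and with BAFF at 30 h and that of Tap1 is high with BAFF at 8 h, where the squares differ less from the unstimulated library than the circles do.

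The class I molecule itself was the most abundant product of the list. H2-K1 (mm10 chr17:33996012-34000333, minus strand, 8 exons) encodes the K heavy chain. Its FPKM was 882 unstimulated, 769 with anti-IgM, 1040.1 with BAFF and 798 with both at 8 h, and 626, 645 and 828 with the same agents at 30 h. BAFF at 8 h was highest, at an interval of 1028 to 1052, anti-IgM at 30 h was lowest, at 617 to 635, and no neighbours in the order of the 7 libraries had overlapping intervals. The highest and lowest differed 1.66-fold. Reads over exons gave the same highest and lowest libraries, at 968 and 534. They lay at 764 after 8 h of anti-IgM and after 30 h of BAFF, close to the 765 of the unstimulated library, with overlapping intervals.

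H2-D1 (chr17:35263094-35267497, plus strand, 8 exons) encodes the D heavy chain. Its FPKM was 514 unstimulated, 414 with anti-IgM, 664 with BAFF and 509.9 with both at 8 h, and 394, 514 and 392 at 30 h. Reads over exons were 689.6 unstimulated, 472, 699.7 and 525 at 8 h, and 412, 601 and 433 at 30 h. By this measure all 4 libraries that had received anti-IgM, alone or with BAFF, were below the 3 that had not, without overlap. The differences from the unstimulated library were -0.55 and -0.39 at 8 h and -0.74 and -0.67 at 30 h with anti-IgM and with both (log2), against 0.02 and -0.20 with BAFF. By FPKM the order was not as clean, since the interval with both agents at 8 h overlapped that of the unstimulated library. The transcript had 2542 bases in the unstimulated library and 2001 to 2241 in the others, and reads over exons count the whole transcript. Class I genes resemble each other, which makes the placing of their reads uncertain. Of the 50-base windows of the H2-D1 transcript 14.3% also occurred in transcripts of other genes, most often H2-Q1, and of those of H2-K1 8.79%, most often H2-D1.

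B2m (chr2:122147687-122153082, plus strand, 4 exons) encodes beta-2 microglobulin, the light chain of all class I molecules. Its FPKM was 636 unstimulated, 709 with anti-IgM, 681 with BAFF and 333 with both at 8 h, and 507, 266 and 504 at 30 h. The low libraries were those with both agents at 8 h and BAFF at 30 h. In these 2 the assembled transcript was 3647 and 3719 bases long and ran far past the reference end, whereas it had 1765 to 1854 bases in the other 5. FPKM divides by that length. Reads over exons, which divide by the reference length but count the reads of the whole transcript, were 1216 unstimulated, 1296, 1242 and 1331 at 8 h, and 916, 1088 and 947 at 30 h. The library with both agents at 8 h thus went from next to lowest to highest. The values of the 2 libraries with long transcripts include reads from a stretch that the other 5 transcripts do not cover. Their place in the order therefore depends on length by this measure too. By this measure the 3 libraries of 30 h were below the other 4 without overlap, by 0.41, 0.16 and 0.36 (log2) below the unstimulated library in the order given. The small excess at 8 h, of 0.09, 0.03 and 0.13, turned to -0.05, -0.09 and -0.04 when libraries were scaled to equal median levels of all genes.

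**Figure D2:**
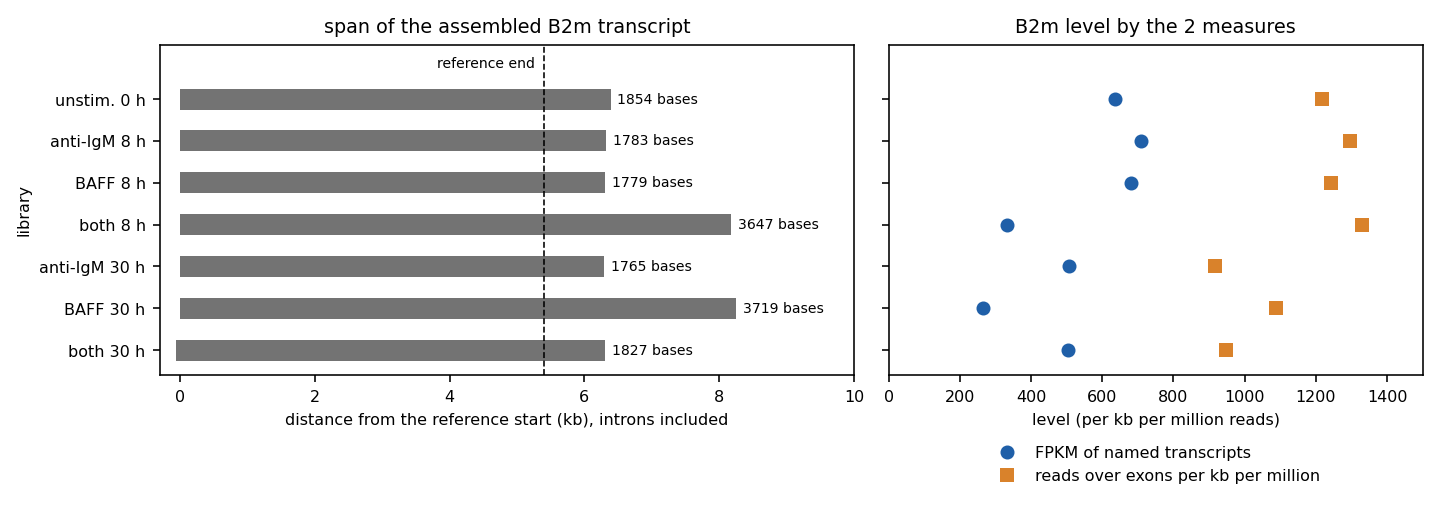
Left, the stretch covered by the assembled B2m transcript in each library (rows), as distance in kilobases from the reference start with introns included, with transcript length beside each bar and the reference end as a dashed line. Right, the B2m level per kilobase per M reads in the same libraries as FPKM (circles) and reads over exons (squares): the 2 libraries with transcripts of 3647 and 3719 bases have the lowest FPKM, and their squares lie at 1331 and 1088.

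Tap1 (chr17:34187556-34197225, plus strand, 11 exons) encodes a chain of the peptide transporter. Its FPKM was 28.2 unstimulated, 22.5 with anti-IgM, 92.7 with BAFF and 22.5 with both at 8 h, and 29.8, 27.5 and 30.2 at 30 h. The library with BAFF at 8 h stood apart, 4.13-fold above the lowest. In the other 6 the Tap1 transcript had 8140 to 8582 bases and ran through the exons of Psmb9, its neighbour on the opposite strand. With BAFF at 8 h it was assembled as a piece of 5271 bases and 1 of 1931 bases, the latter free of Psmb9 and at 72.4 FPKM. Reads over exons were 78.9 unstimulated, 62.6, 90.5 and 61.4 at 8 h, and 70.2, 76.7 and 69.8 at 30 h. BAFF at 8 h was still the highest, by 0.20 (log2) over the unstimulated library and by 0.52 and 0.55 over anti-IgM and both at 8 h. The division of reads between the genes depends on the same assembly, and the reads over the exons of Tap1 and Psmb9 together were 92.4 unstimulated, 69.1, 85.1 and 68.7 at 8 h, and 82.7, 90.4 and 88.5 at 30 h. Over the combined locus the libraries with anti-IgM and with both at 8 h were lowest, by 0.42 and 0.43 (log2) below the unstimulated library, and BAFF at 8 h was 0.12 below it.

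Tap2 (chr17:34204479-34216321, plus strand, 12 exons) encodes the other chain of the transporter. Its FPKM was 56.8 unstimulated, 71.4 with anti-IgM, 51.6 with BAFF and 40.7 with both at 8 h, and 36.2, 48.8 and 46.7 at 30 h. With anti-IgM at 8 h the gene was split into pieces of 925 and 1940 bases, whose FPKM of 26.9 and 44.5 were summed. Reads over exons gave that library as the lowest, at 38.5, beside 57.0 unstimulated, 49.0 with BAFF and 38.8 with both at 8 h, and 42.7, 46.3 and 41.2 at 30 h. The unstimulated library was highest by this measure without overlap, and every stimulated library was lower, by 0.21 to 0.55 (log2). The 2 chains of the transporter work as a pair, and both had their lowest reads over exons with anti-IgM or both agents at 8 h.

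Tapbp (chr17:33919478-33929290, plus strand, 8 exons) encodes tapasin. Its FPKM was 51.1 unstimulated, 73.6 with anti-IgM, 59.5 with BAFF and 68.8 with both at 8 h, and 63.9, 58.9 and 63.4 at 30 h. All 6 stimulated libraries were above the unstimulated one without overlap, by 0.20 to 0.52 on FPKM and by 0.16 to 0.41 on reads over exons (log2). Tapbp was the only member above the unstimulated library in all 6 by FPKM, and stayed above it by reads over exons in scaled libraries. In all 7 libraries the assembled transcripts also covered Zbtb22, the gene upstream on the same strand, so the value is of the 2 genes together.

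The immunoproteasome subunits shared lower values at 8 h of antigen receptor stimulation. Psmb8 (chr17:34198195-34201454, plus strand, 6 exons) encodes the inducible counterpart of Psmb5. Its FPKM was 181 unstimulated, 85.7 with anti-IgM, 123 with BAFF and 133 with both at 8 h, and 150.0, 126 and 209.7 at 30 h. Its transcript had 1053 to 1693 bases. Reads over exons were 127 unstimulated, 96.5, 108 and 91.0 at 8 h, and 159, 152 and 155 at 30 h. By this measure the 3 libraries of 8 h were below the unstimulated one, by 0.39, 0.23 and 0.47 (log2), and the 3 of 30 h above it, by 0.32, 0.27 and 0.29, all without overlap. By FPKM 2 of the 3 libraries of 30 h were below it.

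Psmb9 (chr17:34182099-34187330, minus strand, 6 exons) encodes the counterpart of Psmb6. Its FPKM was 65.2 unstimulated, 37.9 with anti-IgM, 53.3 with BAFF and 41.2 with both at 8 h, and 74.3, 72.4 and 81.1 at 30 h. Its transcript had 1210 to 1310 bases, close to equal in all 7 libraries. By FPKM the 3 libraries of 8 h were below the unstimulated one and the 3 of 30 h above it, without overlap. The differences were -0.77, -0.29 and -0.65 at 8 h and 0.19, 0.15 and 0.31 at 30 h (log2). Reads over exons, which for Psmb9 take in the share of the long Tap1 transcripts, were 142 unstimulated, 92.9, 65.4 and 95.4 at 8 h, and 128, 141 and 157 at 30 h. The value with BAFF at 8 h comes from the library in which Tap1 was assembled in pieces. In that library the reads over exons of Tap1 were the highest of the 7 libraries and those of Psmb9 the lowest. At 30 h only the library with both agents was above the unstimulated one by reads over exons of Psmb9. Over the combined locus with Tap1 the values at 30 h were 82.7, 90.4 and 88.5, all below the 92.4 unstimulated.

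Psmb10 (chr8:105935728-105938392, minus strand, 8 exons) encodes the counterpart of Psmb7. Its FPKM was 62.6 unstimulated, 42.8 with anti-IgM, 73.4 with BAFF and 46.9 with both at 8 h, and 57.6, 77.8 and 49.4 at 30 h. Reads over exons were 49.8 unstimulated, 27.1, 44.1 and 28.2 at 8 h, and 35.7, 46.9 and 40.1 at 30 h. By both measures the 4 libraries with anti-IgM were below both libraries with BAFF alone. With anti-IgM and with both at 8 h reads over exons were 0.85 and 0.80 (log2) below the unstimulated library, and with BAFF 0.17 below it. At 30 h the intervals of BAFF and of the unstimulated library overlapped, and so did those of both agents and of BAFF at 8 h.

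The constitutive subunits that these 3 replace had higher values with anti-IgM. Psmb5 had an FPKM of 55.9 unstimulated and 139 with anti-IgM at 8 h, Psmb6 55.5 and 125, and Psmb7 71.6 and 139. The ratio of Psmb8 to Psmb5 FPKM was 3.24 unstimulated, 0.618 with anti-IgM, 1.84 with BAFF and 0.932 with both at 8 h, and 1.46, 1.35 and 1.89 at 30 h. That of Psmb9 to Psmb6 was 1.17 unstimulated, 0.304, 0.677 and 0.322 at 8 h, and 1.00, 0.969 and 0.881 at 30 h. That of Psmb10 to Psmb7 was 0.874 unstimulated, 0.307, 0.789 and 0.329 at 8 h, and 0.454, 0.746 and 0.403 at 30 h. In all 3 pairs, and by both measures, the ratio was highest in the unstimulated library. On the second scale the Psmb8 ratio was 3.44 unstimulated, 1.02 with anti-IgM and 0.964 with both at 8 h, the Psmb9 ratio 3.58, 0.966 and 1.01, and the Psmb10 ratio 0.828, 0.244 and 0.252. These are ratios of RNA levels and not of subunits in proteasomes.

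**Figure D3:**
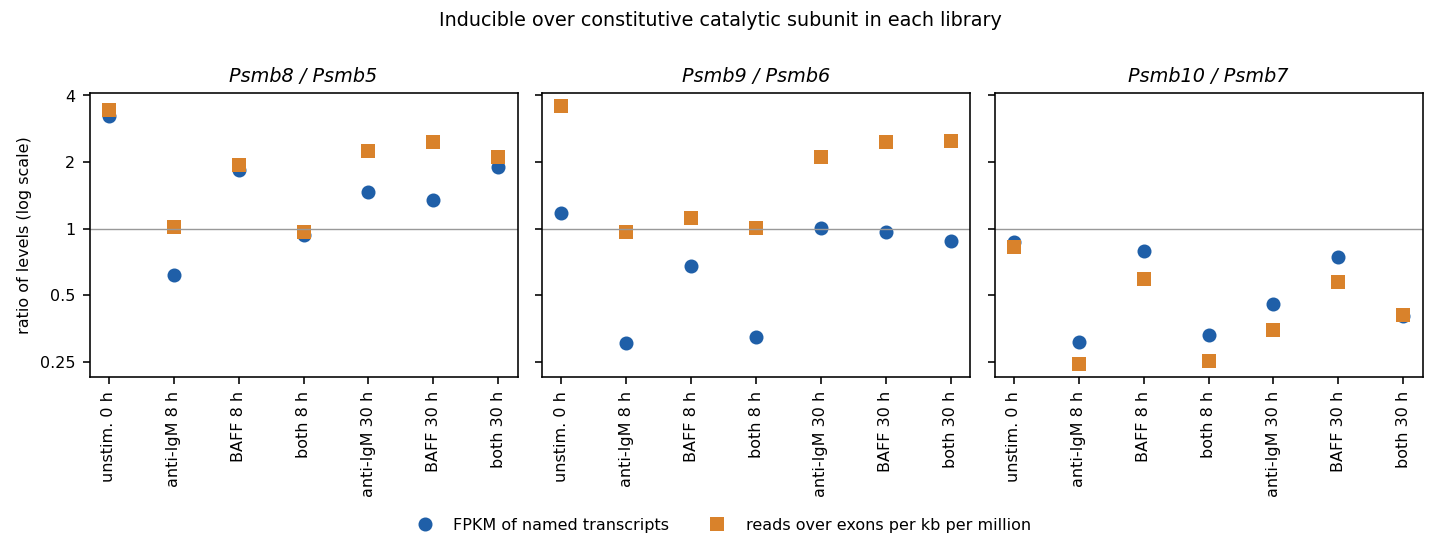
Ratio of the inducible to the constitutive catalytic subunit (vertical axis, log scale) in the 7 libraries (horizontal axis) for the 3 pairs, from FPKM (circles) and from reads over exons (squares). The unstimulated library is highest in each panel, at 3.24, 1.17 and 0.874 by FPKM, and the libraries with anti-IgM or both at 8 h are lowest.

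Nlrc5 (chr8:94472763-94527272, plus strand, 49 exons) encodes the activator that drives class I genes, as Ciita does for class II. Its FPKM was 30.2 unstimulated, 34.8 with anti-IgM, 16.8 with BAFF and 21.9 with both at 8 h, and 32.8, 16.4 and 26.2 at 30 h. The gene was assembled as 2 to 6 transcripts of 1439 to 8470 bases in each library. The interval with anti-IgM at 8 h, which had 6 transcripts, was 24.1 to 45.5. In the unstimulated library a piece of 1573 bases with 1 exon, at 16.5 FPKM, was summed with a piece of 6402 bases at 13.7. Reads over exons, in which such pieces are not added as separate levels, were 15.3 unstimulated, 21.6, 15.6 and 22.6 at 8 h, and 29.0, 17.4 and 29.6 at 30 h. By this measure the 4 libraries with anti-IgM were above the 3 without, with no overlap. In every library a piece began upstream of the reference start, at 94434176 to 94434409, and also overlapped the gene 9330175E14Rik. Reads of such pieces outside the reference exons enter this value, and their part in it was not tested. The differences from the unstimulated library were 0.47 and 0.53 (log2) at 8 h and 0.88 and 0.90 at 30 h with anti-IgM and both, and 0.02 and 0.17 with BAFF. In scaled libraries the value of BAFF at 8 h was -0.09. By FPKM the library with both agents at 8 h was below the unstimulated one and those with BAFF were the lowest. By both measures each library with anti-IgM was above the library with BAFF alone at its time.

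**Figure D4:**
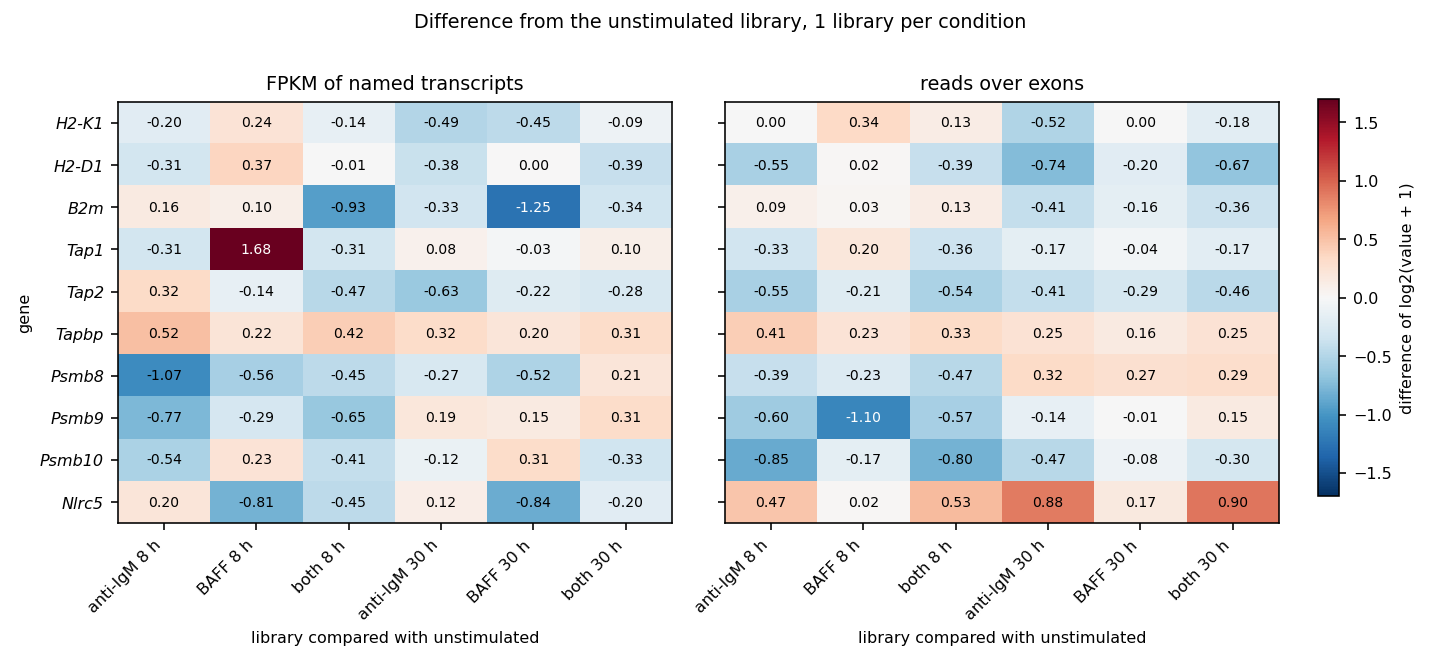
Difference of log2(value + 1) between each stimulated library (columns) and the unstimulated library for the 10 genes (rows), from FPKM on the left and reads over exons on the right; red is higher and blue lower than unstimulated. Tap1 with BAFF at 8 h (1.68) and B2m with BAFF at 30 h (-1.25) stand out on the left, and at 0.20 and -0.16 they do not on the right, where Psmb9 with BAFF at 8 h is lowest (-1.10) and Nlrc5 with both agents at 30 h highest (0.90).

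Few members passed the rule for a difference, and none passed it by both measures. Against unstimulated cells, Psmb8 was called lower after 8 h of anti-IgM, where 21.1% of all compared genes were called in either direction (difference -1.07 by FPKM, -0.39 by reads over exons). Tap1 was called higher with BAFF at 8 h (9.85% of all genes), and B2m lower with BAFF at 30 h (9.16%). None of the 10 was called with both agents at 8 h (21.2%), with anti-IgM at 30 h (15.7%) or with both at 30 h (16%).

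Between agents at 8 h the calls were of the same genes. B2m was called lower with both than with anti-IgM (-1.09; 6.03% of all genes), and B2m and Tap1 lower with both than with BAFF (-1.03 and -2.00; 12.5%). With anti-IgM against BAFF at 8 h Tap1 was called lower (-2.00) and Nlrc5 higher (1.01), beside 13.2% of all genes. By reads over exons these 5 differences were 0.04, 0.10, -0.55, -0.52 and 0.44. At 30 h none was called between both and anti-IgM (5.25%), both and BAFF (8.1%) or anti-IgM and BAFF (8.58%). From 8 h to 30 h B2m and Tap1 were called lower with BAFF (-1.35 and -1.72; 7.73%), and none with anti-IgM (13.4%) or with both (12.5%). Over the 15 comparisons 10 of the 150 member values were called, or 6.67%, against 12% of all gene values. The second measure called 2, both of Psmb9 in the library with BAFF at 8 h, which was lower than unstimulated (-1.10; 7.22% of all genes) and than BAFF at 30 h (the latter higher by 1.09; 4.65%). Without Psmb9 the largest member difference by that measure was 0.90 in size. The comparisons share libraries, so their counts are not independent.

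The length of the assembled transcripts changed between libraries in all 10 members, called or not. B2m and Tap1 accounted for 8 of the 10 calls, and the longest transcript of each gene was 2.11 and 4.44 times its shortest. For Psmb8 and Nlrc5, with 1 call each, it was 1.61 and 5.89 times. H2-D1 and Psmb9, whose transcripts varied 1.27 and 1.08 times in length, were not called by FPKM in any comparison. Neither were Tap2 and Psmb10, at 3.4 and 1.98 times. The part of transcript length in the calls was not tested.

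As a list the members had medians nearer to the unstimulated level than class II had in each of the 6 stimulated libraries, and this difference was not tested. The median difference of the 10 members from the unstimulated library was -0.25, 0.16 and -0.43 (log2) by FPKM after 8 h of anti-IgM, of BAFF and of the combination, and -0.19, -0.12 and -0.14 at 30 h. The same median by reads over exons was -0.36, 0.02 and -0.37 at 8 h and -0.29, -0.03 and -0.18 at 30 h. The median of all compared genes was 0.05, 0.12 and 0.11 by FPKM at 8 h and 0.06, 0.07 and 0.02 at 30 h. Of 11 class II genes, 10 were compared (H2-Ea was not assembled), and their medians were -1.75, -0.65 and -1.25 by FPKM at 8 h and -1.25, -0.49 and -1.24 at 30 h. The gap between the lists was least with BAFF at 30 h, where the class II median by reads over exons was -0.35. With anti-IgM at 8 h 7 of the 10 were called lower, against 10.3% of all genes. Among these H2-DMb2, which helps to load class II, had an FPKM of 463 unstimulated and 29.8 with anti-IgM at 8 h, Ciita, the class II activator, had 94.5 and 13.8, and H2-Oa had 107 and 21.0. Ciita thus differed by -2.69 (log2) in the library in which Nlrc5 was 0.47 higher by reads over exons. By FPKM Nlrc5 differed by 0.20 there, within its counting error of 0.44. Macrophage and monocyte markers, whose cells carry class II, had a median of -2.21 in that comparison (7 of 14 compared, 5 lower), and B cell markers -1.06 (3 of 5 lower). Their part in the lower class II values was not tested.

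Class II was also the lower list without the unstimulated library. With anti-IgM against BAFF at 8 h the class II median was -1.20 by FPKM and the median of the 10 members -0.46, with macrophage markers at 0.18 (-0.41 by reads over exons) and all genes at -0.05. B cell markers were at -1.16 by FPKM in that comparison, close to class II, with 3 of 5 called lower (8.36% of all genes). By reads over exons they were at -0.92, with 2 of 5 called lower (5.78% of all genes). At 30 h the medians by FPKM were -1.17 for class II, 0.07 for the members, -0.56 for macrophage markers (-0.27 by reads over exons), -0.50 for B cell markers and 0.00 for all genes. The members' median by reads over exons was -0.25 at 8 h and -0.13 at 30 h, and that of class II -1.05 and -1.27. The part of B cell and macrophage markers in these values was not tested.

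Genes that serve the pathway beside the members mostly had higher values with anti-IgM. The 8 listed here were the chaperones Calr, Canx, Pdia3 and Tapbpl, the trimming peptidase Erap1 and the proteasome activators Psme1, Psme2 and Psme3. With anti-IgM at 8 h their median was 0.37 by FPKM and 0.80 by reads over exons. By FPKM Psme3 (24.6 unstimulated, 59.2 with anti-IgM) and Erap1 (17.0 and 36.9) were called higher, and Psme2 (217 and 77.7) lower (10.8% of all genes were called higher and 10.3% lower). Psme2 was 0.63 higher by reads over exons. With both at 8 h 3 of the 8 were called higher (12.3% of all genes) and none lower. With BAFF at 8 h the median was -0.06 by FPKM and 0.25 by reads over exons, and none was called.

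The core proteasome, here its 11 alpha and non-catalytic beta subunits, had a median of 1.12 with anti-IgM and 1.14 with both at 8 h by FPKM, with 7 and 8 of 11 called higher (10.8% and 12.3% of all genes). With BAFF it was 0.46, and none was called. At 30 h it was 0.87, 0.51 and 0.91. The medians by reads over exons differed from these by less than 0.1. Other class I-like heavy chains were mostly lower: 13 of 21 were compared by FPKM with anti-IgM at 8 h, with a median of -0.76 and 3 called lower (10.3% of all genes). These were Fcgrt, the neonatal Fc receptor (-3.80 by FPKM), Cd1d1, which presents lipids (31.1 unstimulated and 8.36 with anti-IgM), and H2-T23, which encodes Qa-1 (326 and 147). By reads over exons 14 were compared, with a median of -0.71 and 2 above 0. Of these 14, 1 was called higher and 5 lower, beside 13.2% and 8.96% of all genes. Several H2-Q genes, which are near in sequence, were assembled in only some libraries, and H2-T9 and H2-T22 were named from the same transcripts.

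**Figure D5:**
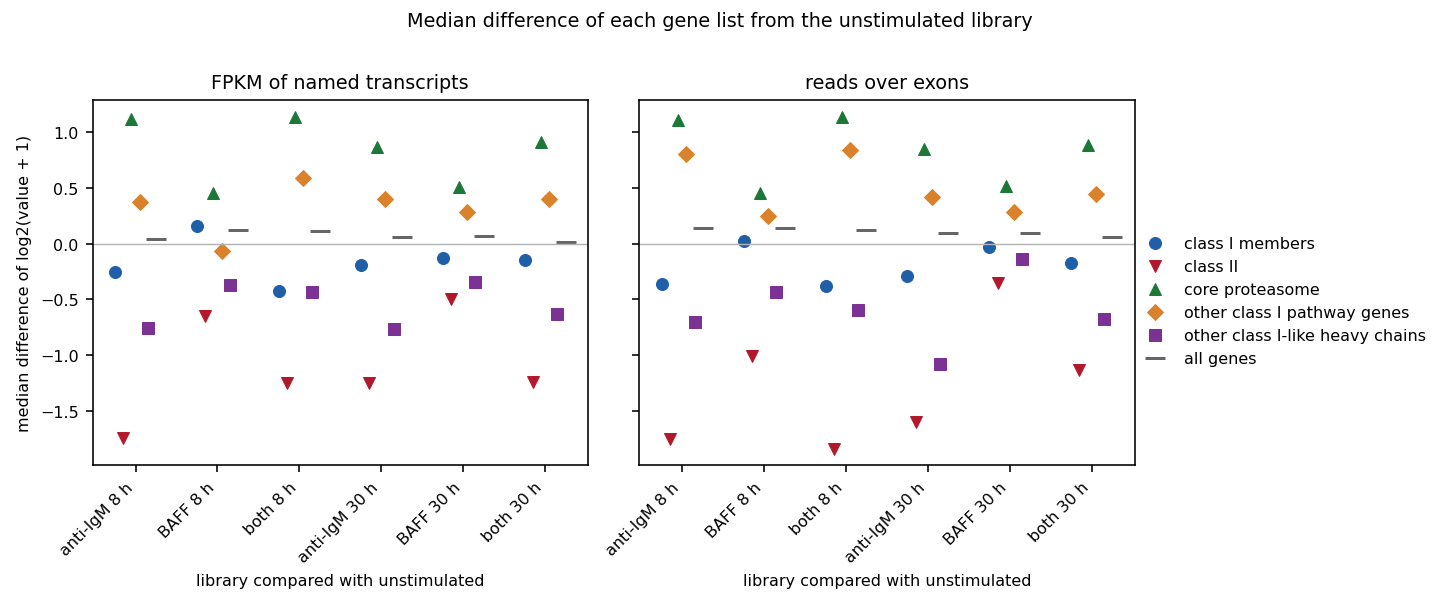
Median difference of log2(value + 1) from the unstimulated library (vertical axis) for each gene list in the 6 stimulated libraries (horizontal axis), by FPKM on the left and reads over exons on the right. The 10 class I members lie between -0.43 and 0.16, class II between -1.84 and -0.35 and the core proteasome between 0.46 and 1.14.

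Of 14 regulators of class I genes 1 was called higher and 1 lower by FPKM with anti-IgM at 8 h, beside 10.8% and 10.3% of all genes, which is near the background. Nfkb1, an NF-kappaB subunit, was the higher (81.6 unstimulated, 190 with anti-IgM FPKM; 1.21 by FPKM and 1.24 by reads over exons). Rfxank, part of the complex that Nlrc5 joins at the promoter, was called lower by FPKM (19.3 and 8.32; 0.24 by reads over exons). Irf1 and Irf2, which bind interferon-stimulated response elements, were 0.71 and 0.88 lower and not called. At 30 h with anti-IgM Irf1 was called lower (74.3 unstimulated, 35.7; 7.27% of all genes). Interferon-stimulated genes had a median of 0.44 with anti-IgM at 8 h, with 4 of 13 called higher (10.8% of all genes), and -0.03 at 30 h with none higher and 2 lower (7.27%). Isg15, a ubiquitin-like modifier, was 11.2 unstimulated and 45.2 with anti-IgM at 8 h.

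By reads over exons, most members with both agents lay closer to anti-IgM alone than to BAFF alone. At 30 h H2-K1, Psmb9 and Psmb8 did not. They differed by 0.34, 0.29 and -0.030 from anti-IgM and by -0.18, 0.16 and 0.027 from BAFF, those of Psmb8 within counting error. Over all genes by this measure, fewer were called against anti-IgM than against BAFF. At 8 h 1.55% of all genes were called against anti-IgM and 10.6% against BAFF, and at 30 h 1.73% and 5.13%. The 10 member differences from anti-IgM by this measure ran from -0.09 to 0.15 at 8 h and from -0.05 to 0.34 at 30 h (log2), the largest being of H2-K1 at 30 h. By FPKM they were wider, from -1.09 (B2m) to 0.62 (Psmb8) at 8 h and from -0.31 (Nlrc5) to 0.48 (Psmb8) at 30 h. Against BAFF alone the differences of both agents by reads over exons ran from -0.63 (Psmb10) to 0.54 (Psmb9) at 8 h and from -0.47 (H2-D1) to 0.74 (Nlrc5) at 30 h. The 0.54 of Psmb9 rests on the library in which Tap1 was assembled in pieces: by FPKM it was -0.36, and over the combined locus the values were 68.7 with both and 85.1 with BAFF. Next to it was Nlrc5, at 0.51. From 8 h to 30 h, Psmb8 was 0.71, 0.50 and 0.77 higher by reads over exons in the same order of treatments (anti-IgM, BAFF, combined), and H2-K1 was lower, by -0.52, -0.34 and -0.31. Psmb9 and Psmb10 were also higher at 30 h with each of the 3 treatments (by 0.46, 1.09 and 0.71 and by 0.39, 0.09 and 0.49), and H2-D1 and B2m lower (by -0.20, -0.22 and -0.28 and by -0.50, -0.19 and -0.49). Of these, the 1.09 of Psmb9 with BAFF rests on the same library with a divided Tap1 transcript. The -0.49 of B2m with both agents rests on the 8 h library with the B2m transcript of 3647 bases. The -0.19 of B2m with BAFF rests on the 30 h library with that of 3719 bases. Reads past the reference end are counted in both. The 0.09 of Psmb10 was within counting error. By reads over exons the 3 immunoproteasome genes thus had higher values at 30 h than at 8 h in each treatment and the 3 genes of the class I molecule lower ones, and no sign changed in scaled libraries. By FPKM the signs were the same but for H2-K1 and B2m with both agents, which were 0.05 and 0.60 higher at 30 h. The FPKM differences of Psmb8 with BAFF (0.037) and of Psmb10 with BAFF (0.083) and with both (0.075) were within counting error.

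Patterns were also compared by the root mean square difference between log2 values centred over the 7 libraries, among 7066 genes at 5 FPKM or more in all of them. The genes nearest to the mean of the 10 members were Sdr39u1, Spice1, Nudt21, Eef2k and Nub1, with values of 0.05 to 0.07, for a mean that ranged over 0.44. Those nearest to Nlrc5 were Stat4, Ptger4, Mrrf, 2410091C18Rik and Sh3bp2, with values of 0.18 to 0.21 and a range of 1.04. By reads over exons 0 of these 5 were among the nearest 5 in either case.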

How the data were processed

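Poly-dT primed RNA libraries were made with TruSeq kits, per the labels' protocols. Reads were processed with CASAVA 1.8.2, TopHat2 2.0.5 and Bowtie2 2.0.0.7 on mm10, and transcripts were assembled in each library with Cufflinks 2.0.2, per the submitters' processing notes. The deposited values are FPKM of assembled transcripts with a lower and an upper bound, per the file headers. A deposited merged assembly gave gene names and reference exons, and no values.

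A transcript of at least 300 bases was named for each gene on its strand of which it covered at least 50% of the exon bases, and otherwise for the gene of largest overlap. Shorter pieces made up 66.6% to 74.4% of summed FPKM and were left out. FPKM was summed per gene, and the bounds were read as 2 SD. Mapped reads were calculated back from FPKM, bounds and length. For reads over exons, all reads of a piece on either strand were counted, also those outside the reference exons. The reads of a piece over several genes were divided by overlapping bases.

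Differences are of log2(FPKM + 1), for genes assembled in both libraries with at least 1 FPKM in 1 of them, in 15 comparisons. There are no replicates and no p-values. The members and gene lists were chosen with earlier results of these data known. All 10 members were named, and from each other list at most the 4 largest differences of the comparison described. One further B cell marker is not reported here. Shared windows were counted in GENCODE M21 transcripts. Alternatives covered the pseudocount, minimum, scaling, transcript choice, length, intervals and reads over exons. The likeness by reads over exons and the scaling of reads over exons were added after seeing the data. Steps were tested on simulated data. Python 3.11.15, numpy 2.4.6 and matplotlib 3.10.9 were used.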

Additional observations from a re-analysis of the deposited data

How the results depend on the processing

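No paired analysis was possible because each condition had 1 library, and for the same reason no replicate could be left out. The counts of called members and the medians kept their values to within the rule in all 15 comparisons with a pseudocount of 0.1 FPKM, without the minimum FPKM and with transcripts of any length, and the counts did so without the interval rule. Dividing each library by the median ratio of its genes moved all differences from the unstimulated library by -0.04 to -0.17. The count of called members was then 1 in place of 2 for anti-IgM against BAFF at 8 h, and 1 in place of 0 for anti-IgM at 30 h against 8 h, for both at 30 h against 8 h and for both at 8 h against unstimulated. The median member difference became -0.39, 0.036 and -0.60 for anti-IgM, BAFF and both at 8 h against unstimulated, -0.27 and -0.20 for anti-IgM and BAFF at 30 h, and -0.0152 and 0.36 for anti-IgM and both at 30 h against 8 h. With the most abundant transcript only, the count was 1 for anti-IgM against BAFF at 8 h, and the median was 0.16 and 0.30 for anti-IgM and both at 30 h against 8 h. By reads over exons the count was 1 for BAFF at 30 h against 8 h, and 0 for BAFF at 30 h and anti-IgM at 8 h against unstimulated, and for anti-IgM against BAFF, both against BAFF and both against anti-IgM at 8 h. The medians by reads over exons were -0.026 for BAFF at 30 h, 0.023 for BAFF at 8 h, -0.29 for anti-IgM at 30 h and -0.36 for anti-IgM at 8 h against unstimulated. They were -0.13 and -0.25 for anti-IgM against BAFF at 30 h and 8 h, -0.15 and -0.23 for both against BAFF at 30 h and 8 h, and 0.15 and 0.13 for anti-IgM and both at 30 h against 8 h. The called difference of B2m reversed by reads over exons for both against BAFF (0.10) and both against anti-IgM (0.038) at 8 h. These values include reads outside the reference exons from the B2m transcript of 3647 bases with both agents. Of 150 member differences by reads over exons, 11 changed sign in scaled libraries, none larger than 0.13 in size. Each member rests on 677 to 35958 reads per library, and the intervals cover only this counting error, not the assembly or the spread between cultures.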
